A study of Arabidopsis thaliana with 3 samples.

Results

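Cytochrome P450 genes were followed in the lateral nectaries of Arabidopsis thaliana, the larger nectar glands at the base of the flower, in cwinv4-1 mutants and in the wild-type. A probe set, the group of short probes that reads 1 transcript, counted as P450 when the array's platform annotation gave it a single gene symbol made of CYP, a family number of 2 or 3 digits and a subfamily letter, which leaves out the cyclophilins that share the prefix. The rule found 9 of 14338 probe sets, and 8037 of the 14338 carry a single gene name. RefSeq symbols and synonyms pointed to 0 further P450s among the named probe sets. The gene table of RefSeq (assembly TAIR10.1) holds 236 genes with such a symbol, so most of the superfamily was not analysed here. Of the 9 probe sets, 7 belong to subfamily CYP71B, 1 to CYP78A and 1 to CYP51G.

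The mutant was measured in 2 samples and the wild-type in 1, all of ecotype Columbia-0 and from plants 30 to 35 days old, on 1-colour Affymetrix arrays. About 250 to 300 nectaries, dissected by hand from stage 14 to 15 (secretory) flowers, made up a sample. The labels give every sample a cycle of 16 h light and 8 h dark and a time of 4 to 8 h after dawn. CWINV4 encodes a cell wall invertase that splits sucrose outside the cell, and the series is titled as a study of a nectarless mutant, so the comparison asks which P450 transcripts differ between glands of the mutant and glands that secrete. The mutant is 1 allele carried by the whole plant, and the title of its replicate 1 adds a letter to the allele name that the labels do not explain. No named probe set measured the mutated gene, so it could not check the labels.

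Cytochrome P450 enzymes are membrane-bound, haem-containing monooxygenases that insert oxygen into small molecules with electrons from a reductase. In plants they build and break down hormones, sterols, cuticle lipids, phenylpropanoids, defence compounds and floral scent. The names are hierarchical, with the number for the family and the letter for the subfamily, and CYP71B is one of the largest subfamilies of Arabidopsis. Families 71 and 78 belong to clan 71, the clan that holds most plant-specific P450s, and family 51 forms a clan of its own that is shared with animals and fungi and acts in sterol synthesis.

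The P450 probe sets fell into a measured group and a group at the bottom of the signal range. On cwinv4-1 replicate 1, 7 of the 9 had a signal, from 31.7 to 4357, and on replicate 2 there were 6, from 77 to 3145. The wild-type array had 7, from 18.9 to 1301. The median over all probe sets was 500.8 and 549.8 on the mutant arrays and 507.8 on wild-type. Only 5 had a signal on all 3 arrays, namely CYP71B6, CYP71B28, CYP71B31, CYP71B34 and CYP78A9. On each array 3 of the 9 lay above the median, always including CYP71B31 and CYP78A9. The third was CYP71B6 on both mutant arrays and CYP71B28 on the wild-type array. A probe set's signal also depends on its probes, so these positions are no order of transcript amounts between genes.

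**Figure D1:**
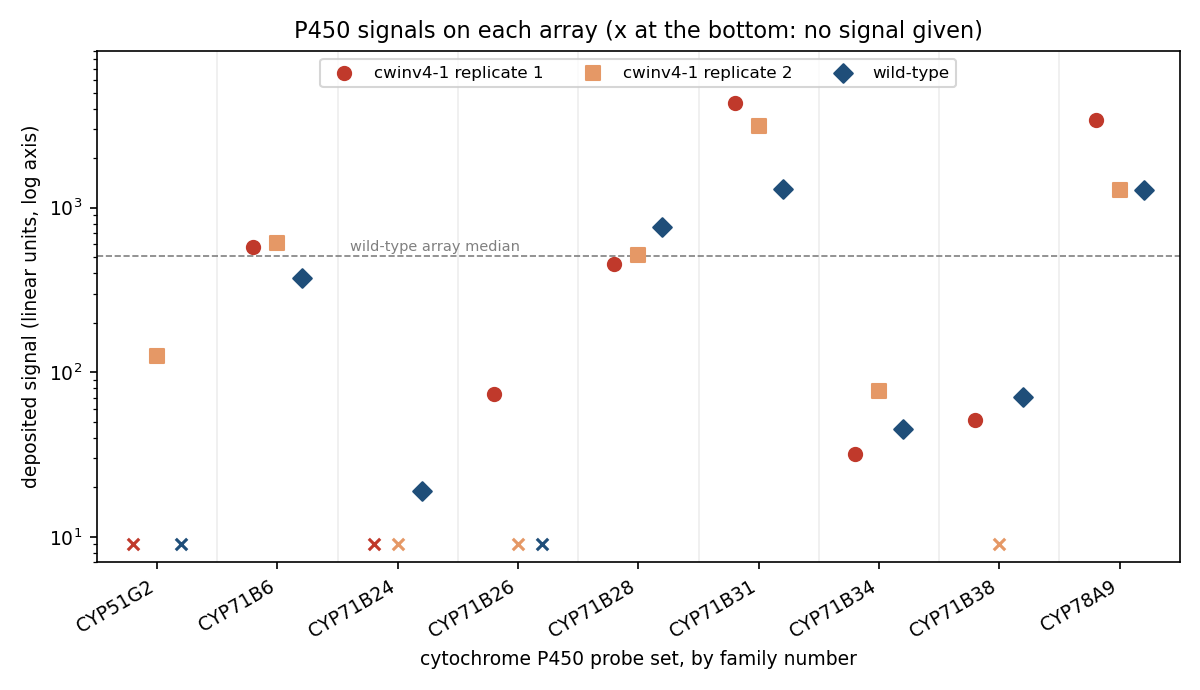
Deposited signal (log axis) of the 9 P450 probe sets, ordered by family number, on cwinv4-1 replicate 1, cwinv4-1 replicate 2 and wild-type, with a cross at the bottom where no signal was given and a dashed line at the wild-type array's median. CYP71B31 stood at 4357 and 3145 in the mutant against 1301 in wild-type, while 5 probe sets had no signal above 125.3 on any array.

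CYP71B31 (AT3G53300) showed the largest difference of the P450s. Its enzyme is known from Arabidopsis flowers, where it oxidises linalool, a monoterpene alcohol of floral scent. The signal was 4357 on cwinv4-1 replicate 1 and 3145 on cwinv4-1 replicate 2, against 1301 on the wild-type array. Both mutant arrays were higher, and they differed from each other 1.39-fold, less than either differed from wild-type. The ratios were 3.35-fold in replicate 1 and 2.42-fold in replicate 2. On each array's own scale the probe set stood above 94.3% and 90.9% of the probe sets with a signal in the mutant, and above 75.9% in wild-type.

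In limma's moderated test over 7750 probe sets the mean ratio of cwinv4-1 to wild-type was 2.85-fold for CYP71B31 (log2 fold change 1.51, standard error (SE) 0.39, 95% interval 0.69 to 2.33). It did not pass after adjustment over all tested probe sets, with an adjusted p of 0.129 and an unadjusted p of 0.00128 in limma. By unadjusted p it was number 77 of the 7750, and by size number 59 from the highest. CYP71B31 was 1 of 100 tested probe sets, 1.29%, that were at least 2-fold higher in both mutant arrays. The call turned with the filter on low signals: with no filter the limma adjusted p was 0.0324, and with a filter at the 50th percentile it was 0.0120, both past the threshold of 0.05. Of the probe sets tested in each case, 0.590% of 10334 passed as higher with no filter and 0.871% of 5167 with that stricter filter. The fold change itself is the same under all 3 filters. Over 9 settings of the processing and the test the limma adjusted p ran from 0.0120 to 0.592, and 2 passed.

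**Figure D2:**
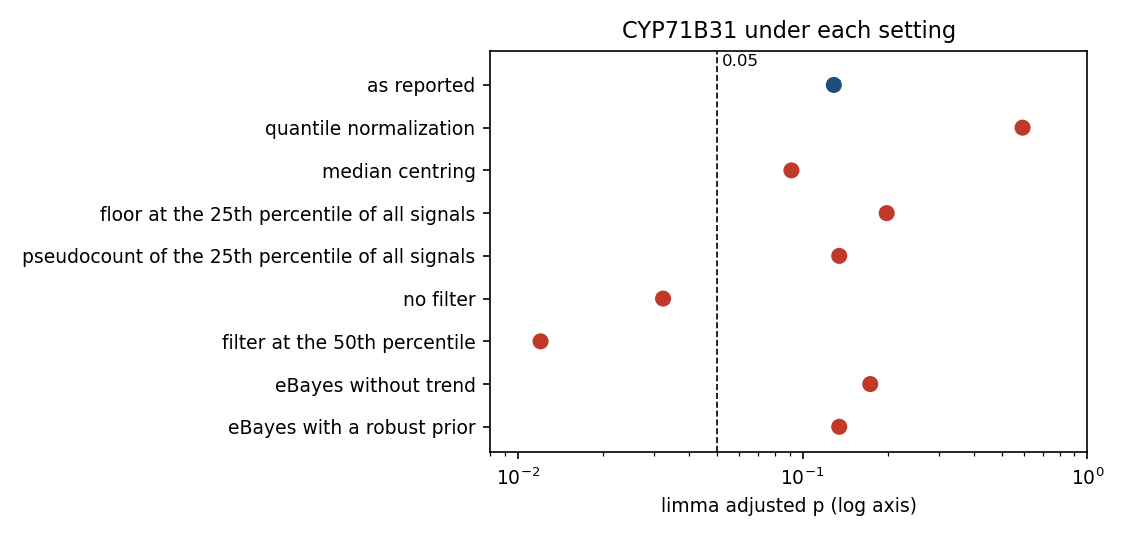
limma adjusted p (log axis) for CYP71B31, cwinv4-1 against wild-type, under the reported setting (blue) and 8 alternatives (red), with the threshold of 0.05 as a dashed line. Only the 2 other filters, at 0.0324 and 0.0120, lie left of the line, and quantile normalization lies farthest right at 0.592.

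CYP78A9 (AT3G61880) differed on 1 mutant array only. CYP78A enzymes promote the growth of floral organs, seeds and fruits, and their substrate is not settled. The signal was 3438 on cwinv4-1 replicate 1 and 1273 on cwinv4-1 replicate 2, against 1285 on the wild-type array. Replicate 1 stood apart, 2.68-fold over wild-type, and replicate 2 matched wild-type with a log2 difference of -0.01. The mutant arrays were 2.70-fold apart for this probe set, and 5.68% of all tested probe sets were at least 2-fold apart between them. Taken alone, replicate 1 was at least 2-fold over wild-type for 1.73% of tested probe sets, CYP71B31 and CYP78A9 among them. Replicate 2 alone was so for 4.93%, and of the P450s for CYP71B31. The mean log2 fold change of CYP78A9 was 0.70 (SE 0.48, 95% interval -0.31 to 1.72, limma adjusted p = 1.00), so the difference was within the spread of the mutant arrays. CYP78A genes are active in developing carpels and ovules. Of 3 carpel and ovule markers, 1, the carpel regulator SPT, had a named probe set, at 767.7 and 390.9 in the mutant and 877.3 in wild-type. SPT lay below wild-type on both mutant arrays, and the part of carpel tissue in the CYP78A9 values was not tested. In bulk RNA, fewer cells of a type and less RNA per cell cannot be told apart.

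CYP71B6 and CYP71B28 were close to each other in size of difference and opposite in direction. CYP71B6 (AT2G24180), whose enzyme converts indole-3-acetonitrile, an intermediate of tryptophan-derived defence compounds, had signals of 577.2 on cwinv4-1 replicate 1 and 608.1 on cwinv4-1 replicate 2, against 371.5 on the wild-type array. Both mutant arrays were higher and nearly alike, by 1.55- and 1.64-fold. Its mean signal was 592.7 ± 21.8 in the mutant (SD, n = 2) and 371.5 on the lone wild-type array. The log2 fold change was 0.67 (SE 0.40, 95% interval -0.17 to 1.52), and it did not pass limma's test (adjusted p = 0.958). Of all tested probe sets, 4.19% were at least 1.5-fold higher in both mutant arrays, and among the P450s these were CYP71B31 and CYP71B6.

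CYP71B28 (AT1G13090), for which no substrate is given here, had signals of 455.7 on cwinv4-1 replicate 1 and 515.7 on cwinv4-1 replicate 2, against 766.4 on the wild-type array. It was the only tested P450 for which both mutant arrays lay below wild-type, as they did for 37.2% of all tested probe sets. The wild-type signal was 1.68 times that of replicate 1 and 1.49 times that of replicate 2. Its log2 fold change was -0.66 (SE 0.40, 95% interval -1.50 to 0.18), and it did not pass limma's test (adjusted p = 0.967). For CYP71B6 and CYP71B28 the intervals include 0 and also changes of over 2-fold, so neither a change of that size nor its absence was shown.

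**Figure D3:**
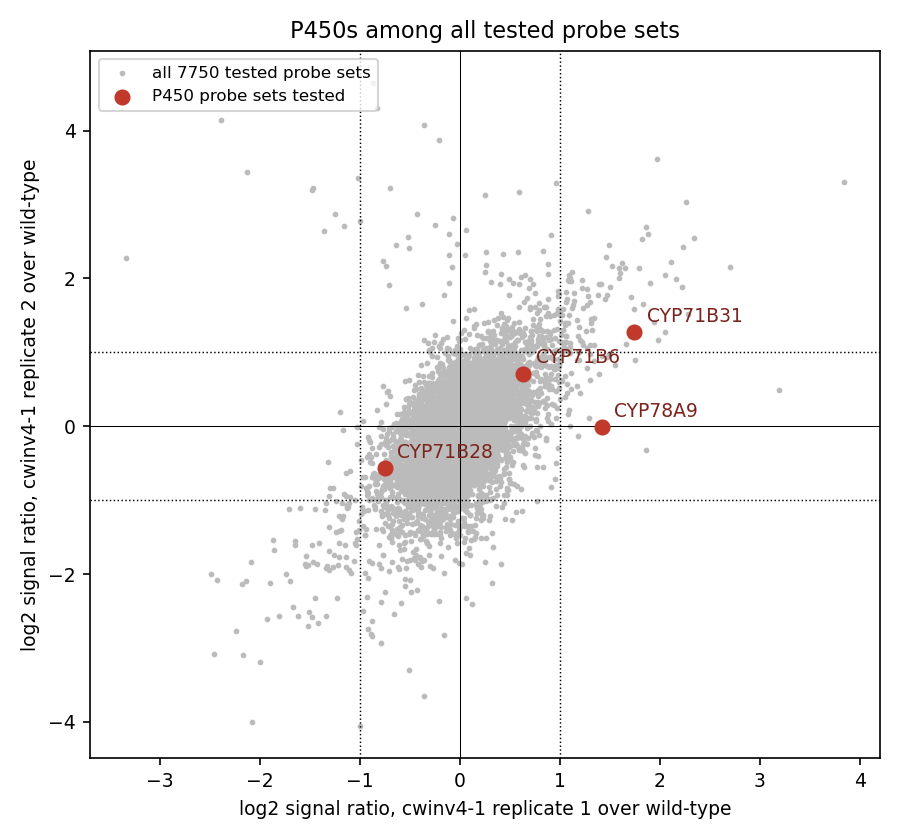
Log2 signal ratio to wild-type on cwinv4-1 replicate 1 (horizontal) and replicate 2 (vertical) for all 7750 tested probe sets (grey) and the 4 tested P450s (red), with dotted lines at 2-fold. Both axes share the wild-type array. CYP71B31 is the only P450 past 2-fold on both axes, CYP78A9 is past it on the horizontal axis only, and CYP71B28 lies below 0 on both.

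The other 5 P450 probe sets gave low or missing signals and were not tested. CYP71B34 (AT3G26300) had 31.7 and 77 in the mutant (replicates 1 and 2) and 45.2 in wild-type, all among the lowest 1.9% of signals on their array and under the filter. The mutant arrays lay on opposite sides of wild-type. CYP71B38 (AT3G44250) had 51.1 in replicate 1 of the mutant and 70.8 in wild-type, and no signal in replicate 2. Each of the last 3 had a signal on a single array. It was 73.6 on cwinv4-1 replicate 1 for CYP71B26 (AT3G26290), 125.3 on cwinv4-1 replicate 2 for CYP51G2 (AT2G17330) and 18.9 on the wild-type array for CYP71B24 (AT3G26230). All 3 were single low readings, and no fold was computed for them. CYP51G2 is a relative of the sterol 14-demethylase and is listed in RefSeq as a transcribed pseudogene, the only 1 of the 9 that is not listed as protein coding.

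Of the 9 P450 probe sets, 4 lacked a signal on at least 1 array, against 27.9% of all 14338. Replicate 2 of the mutant lacked a signal for 3 of the 9, and the other arrays for 2 each. Over all probe sets it lacked a signal for 20.7%, against 13.2% on replicate 1 and 13.1% on wild-type. Its 3′ to 5′ signal ratio was also the highest of the 3 arrays in 5 of 6 control pairs, at 11.2 for 1 GAPDH pair against 2.87 on replicate 1 and 4.81 on wild-type. Over the tested probe sets the log2 difference between the mutant arrays had an SD of 0.56, and against wild-type the SD was 0.41 for replicate 1 and 0.68 for replicate 2. Of 25 markers of nectary, pollen, carpel, green tissue, guard cells, phloem and xylem, 7 had a named probe set and 6 were tested. In limma's test 0 of the 6 passed, against 0.219% of all tested probe sets as higher and 0.206% as lower. Of these 6, 0 had both mutant arrays above wild-type and 4 had both below it, against 30.0% and 37.2% of all tested probe sets. The 4 are all the tested markers of tissues other than the nectary, and they lay further down on replicate 2 than on replicate 1. The pollen gene AT3G07820 had 569.1 and 128.2 in the mutant and 658 in wild-type (limma adjusted p = 0.775). The photosynthesis gene LHCB4.1 had 7140 and 5208 in the mutant and 8107 in wild-type, and RCA had 10100 and 9857 in the mutant and 11200 in wild-type. The carpel gene SPT is given above with CYP78A9. The part of RNA quality and of other cell types in the P450 values was not tested. Without replicate 2 CYP71B31 was 3.35-fold over wild-type and without replicate 1 it was 2.42-fold, and both ratios share the lone wild-type array.

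Of the 7 CYP71B genes measured, 5 have other CYP71B genes among their near neighbours, and CYP71B6 and CYP71B38 do not. In RefSeq gene order CYP71B24, CYP71B26 and CYP71B34 lie on chromosome 3 within a run of 12 coding genes and pseudogenes, of which 6 are CYP71B genes. All 3 were at the bottom of the signal range or without a signal. CYP71B31 has CYP71B5, CYP71B30P and CYP71B32 among the 3 genes on either side, and CYP71B28 has CYP71B27, CYP71B2, CYP71B29 and CYP71B7. None of these 7 neighbours had a named probe set here. The only gene within 3 of CYP71B31 that had one was AT3G53320, which is not a P450, with no signal on either mutant array and 206.2 on wild-type. CYP71B6, CYP71B38, CYP78A9 and CYP51G2 have 0 P450 neighbours within 3 genes. AT3G61870, the gene next to CYP78A9, had signals of 1377 and 1272 in the mutant and 1406 in wild-type, nearly level over the arrays.

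The partners of P450s were followed in 9 lists with 122 genes, covering electron donors, terpenoids, glucosinolates, phenylpropanoids, hormones, sterols and cuticle lipids. Only 11 had a named probe set and 8 were tested. In limma's test 0 of the 8 passed, against 0.219% of all tested probe sets as higher and 0.206% as lower. At an unadjusted limma p under 0.05 there was 1 as lower, against 3.02% of all. It was the gibberellin receptor gene GID1A (unadjusted p = 0.0208, limma adjusted p = 0.535). Of the 8, 2 had both mutant arrays above wild-type and 2 had both below it, against 30.0% and 37.2% of all tested probe sets. None of the 10 electron donors and scaffolds, such as the P450 reductases, was measured by a named probe set. No list reached 3 tested genes, so GID1A and the genes of these lists named next were picked with their values in view.

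The pair of terpene synthases measured had their highest signal on replicate 2 of the mutant, whereas CYP71B31 had its highest on replicate 1. TPS11, which makes sesquiterpenes, had signals of 22100 on cwinv4-1 replicate 1 and 50300 on cwinv4-1 replicate 2, against 24100 in wild-type. TPS24, which makes monoterpenes, had 18800 and 49500, against 22400 in wild-type. Both lay slightly below wild-type on replicate 1 and about 2-fold above it on replicate 2, and both were among the highest signals of every array. Their limma log2 fold changes were 0.47 (SE 0.63) and 0.45 (SE 0.64), each with an adjusted p of 1.00. The nectary sugar transporter SWEET9 had the same shape, with 16300 and 38100 in the mutant and 19700 in wild-type. JMT, a jasmonate methyltransferase gene of nectaries, had 12400 and 2368 in the mutant and 11900 in wild-type, low on replicate 2 only. SWEET9 and JMT were the only 2 of 6 nectary markers with a named probe set. HCT, an acyltransferase that supplies the substrate of the phenylpropanoid P450 CYP98A3, had 2679 and 2450 in the mutant and 1975 in wild-type (log2 fold change 0.38, limma adjusted p = 1.00).

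**Figure D4:**
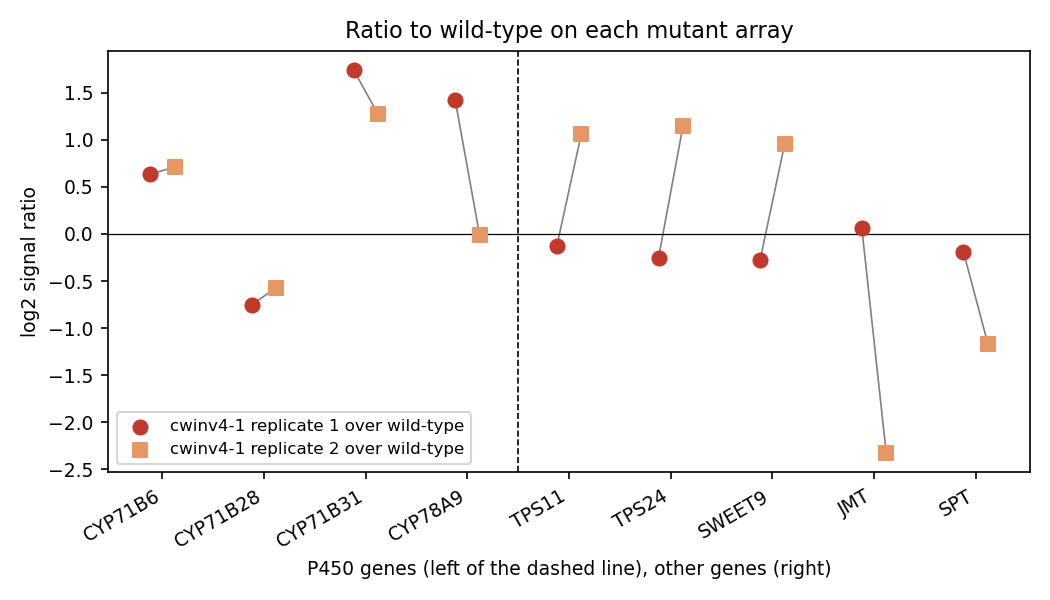
Log2 signal ratio to the wild-type array on cwinv4-1 replicate 1 (circles) and replicate 2 (squares), for the 4 tested P450s and for TPS11, TPS24, SWEET9, JMT and SPT. CYP71B6, CYP71B28 and CYP71B31 kept their side of 0 on both arrays, whereas TPS11, TPS24 and SWEET9 lay below 0 on replicate 1 and at 0.95 to 1.14 on replicate 2.

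Counted together, 0 of the 4 tested P450s passed limma's test at an adjusted p of 0.05, against 0.219% of all tested probe sets as higher and 0.206% as lower. At an unadjusted limma p under 0.05 there was 1, CYP71B31, as higher, against 3.47% of all, and 0 as lower, against 3.02%. In both mutant arrays 1 was at least 2-fold higher and 0 were at least 2-fold lower, against 1.29% and 0.994% of all. Their median log2 fold change was 0.69 (1.03 in replicate 1 and 0.35 in replicate 2), against -0.05 over all 7750, and with 4 genes it describes these genes only. The lone wild-type array enters every ratio, and its own spread was not measured.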

How the data were processed

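The authors deposited 1 linear signal intensity for each probe set and array, made with MAS5, per the submitters' processing notes. Its version and target level are not given in the sources used here. Per the series' design text, further wild-type arrays entered the normalization. A cell without a value was kept as missing. Total RNA (500 ng) had been amplified once, per the labels' protocols. Gene names came from GEO's annotation of the platform, and 8000 of 8037 single names matched RefSeq (TAIR10.1) by gene number. The 37 control probe sets were left out of the tests.

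Values were taken as log2 of the intensity. Of 10334 probe sets with 3 signals, the 7750 with a mean log2 at or above the 25th percentile were tested with limma 3.58.1 in R 4.3.3 (lmFit, eBayes with trend, two-sided, Benjamini-Hochberg over all 7750, threshold 0.05). Residual spread comes from the mutant arrays alone (1 degree of freedom, plus 15.4 prior ones), which the lone wild-type array is taken to share. The test was also run on simulated data with equal spread in every array, so unequal spread between the arrays was not checked. The number of arrays limits precision. The p-values rest on the spread between the mutant arrays, moderated over all tested probe sets, and hold no measure of spread in wild-type. P450s and lists were chosen with earlier results of these data known. By rule, P450s are given by signal, by agreement of the mutant arrays, by disagreement and by missing signals. The rule also allows up to 3 genes for each partner list with at least 3 tested members. No list reached that number, so the partner genes named were picked outside the rule.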

Additional observations from a re-analysis of the deposited data

How the results depend on the processing

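The count of P450s passing limma's test as higher was 0 as reported and 1, CYP71B31, both with no filter (adjusted p = 0.0324) and with a filter at the 50th percentile (adjusted p = 0.0120). It was 0 under 6 further settings: arrays quantile normalized or centred on their medians, low signals floored at 222 or that value added to all, and a prior without trend or a robust one. No P450 passed as lower under any of these. Over the probe sets tested in each setting, the same limma test called 33 as reported and 0 after quantile normalization or with the floor. It called 95 after median centring, 126 with no filter and 90 with the filter at the 50th percentile. The number of P450s at least 2-fold higher in both mutant arrays was 1 as reported, against 1.29% of all tested probe sets. At 1.5-fold it was 2, against 4.19% of all, and at 3-fold it was 0, for which no share of all was computed. It was 2 without replicate 2, against 1.73% of all, and 1 without replicate 1, against 4.93%. The log2 fold change of CYP78A9, 0.70 as reported, was -0.01354 without cwinv4-1 replicate 1 and 1.42 without replicate 2, since only replicate 1 was high. The median P450 signal stood above 47.3% of probe sets on cwinv4-1 replicate 1, 50.4% on replicate 2 and 40.8% on wild-type. These medians are over the 7, 6 and 7 P450s with a signal on that array, which are not the same genes. With missing signals ranked lowest the shares were 19.3%, 25.7% and 18.1%. Over the 5 P450s with 3 signals they were 53.8%, 53.3% and 62.3%, so wild-type was then highest and not lowest. The middle gene of this set was CYP71B6 on both mutant arrays and CYP71B28 on wild-type, so these medians also compare different genes. The median log2 fold change ran from 0.35, without replicate 1, to 1.11, over the 2 P450s left by the filter at the 50th percentile. No gene had more than 1 P450 probe set, so taking 1 probe set per gene left this median at 0.69, and there was nothing to average over the probe sets of a gene. Leaving out a mutant array leaves no residual degree of freedom, so it gives values and no test. No paired analysis was possible because the groups share only replicate number 1.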
